A study of Saccharomyces cerevisiae with 50 samples.

Results

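Replication protein A and the clamp loaders were followed through 2 synchronous cell cycles of budding yeast, Saccharomyces cerevisiae, as 10 of the 6204 open reading frames measured. The members were listed by name: RFA1 (YAR007C), RFA2 (YNL312W), RFA3 (YJL173C), RFC1 (YOR217W), RFC2 (YJR068W), RFC3 (YNL290W), RFC4 (YOL094C), RFC5 (YBR087W), CTF18 (YMR078C) and ELG1 (YOR144C). Cells of the laboratory strain W303 were arrested in G1 with alpha factor, the pheromone to which MATa cells respond, then released into rich medium (YEPD) and sampled every 5 min from 0 to 120 min. Total RNA of each of the 25 time points was hybridised against RNA of an asynchronous YEPD culture on 2 arrays, with the sample in Cy3 on one and in Cy5 on the other. The reference culture's strain is not named in the labels, and no label gives a second culture or a mutant. The pair of arrays is a technical repeat, so each time point counts as 1 value, and every p below measures only how time points of 1 course scatter around the fit.

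Replication protein A (RPA) is the heterotrimer that coats single-stranded DNA as it is exposed at replication forks and during repair. Replication factor C (RFC) is the pentameric ATPase that opens the ring-shaped clamp PCNA and places it on primed DNA, where it tethers the polymerases. RFC1 is the large subunit of this canonical loader, while RFC2 to RFC5 are shared with alternative loaders in which the large subunit is replaced by Ctf18, which acts in sister chromatid cohesion and the replication checkpoint, or by Elg1, which takes PCNA off DNA. In budding yeast many genes of DNA synthesis are transcribed in late G1 by the factor MBF and its relative SBF.

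Values are log2 ratios of sample to asynchronous RNA, averaged over the dye pair unless a dye is named, and a value of 0 is the level of the asynchronous culture. A ratio compares a gene with itself in the reference and sets no gene's transcript level against another's. The deposited ratios carry no stated log base or direction. The base was taken as 10 because the values end at -2 and 2, a 100-fold limit. The direction was read from 6 pheromone-induced genes, which were 3.39 (KAR4) to 5.79 (AGA1) on the log2 scale at 0 min. A check of each gene's mean against its variance gave slopes of -0.781 to -0.675. These lie between the -1.15 expected for log10 and the -0.5 expected for natural logs, nearer to the latter, and -0.347 is expected for log2. The check did not settle the base. Were the values natural logs, every log2 size below would be 0.434 times as large, and were they log2, 0.301 times, with the tests unchanged. All 500 member values but 1 were present (RFC3 with the sample in Cy3 at 95 min, so that time point rests on 1 array), and none lay at the limit. Over all frames the paired arrays correlated with r from 0.196 to 0.673. The SD within a pair was 0.12 to 0.22 log2 units for the members.

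The RPA genes rose and fell with the cycle, RFA1 and RFA2 by nearly 4-fold between fitted peak and trough and RFA3 by less and later. RFA1, the large DNA-binding subunit, stood at -1.07 (Cy3) and -1.05 (Cy5) at 0 min and at 1.24 and 1.21 at 20 min. It then fell to -1.63 and -1.42 at 55 min and came back to 0.90 and 0.65 at 80 min. Its highest time points were 15 to 25 min, and on both dyes 20 min was the highest value and 55 min the lowest. RFA2, the middle subunit and a checkpoint phosphorylation target, ran from -1.48 and -0.75 at 0 min to 1.17 and 1.15 at 20 min, to -1.77 and -1.60 at 55 min, and to 0.90 and 0.82 at 80 min. RFA3, the small subunit, had a lowest value of -0.53, a median of 0.21 and a highest value of 0.70. Its 3 highest means, 0.55 to 0.70, fell at 20 to 30 min, and unlike RFA1 it was still at 0.47 at 40 min, when RFA1 was at -0.43. The plot of the 10 members by time shows both arrays at every time point.

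**Figure D1:**
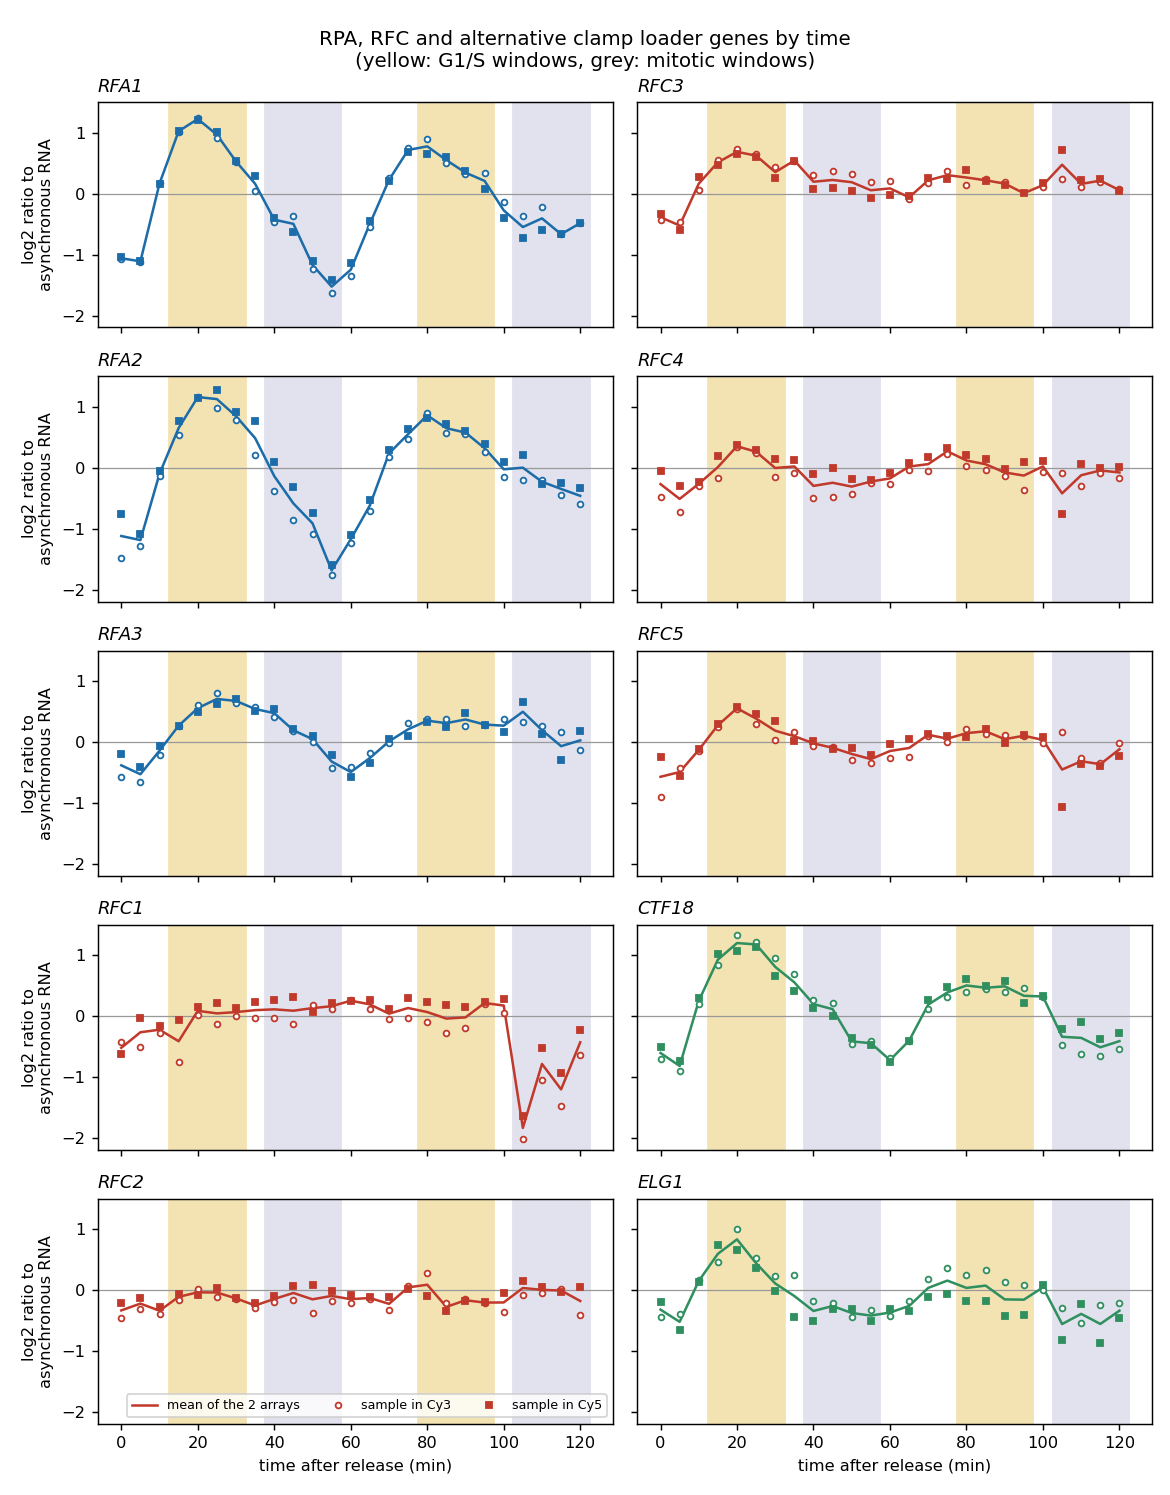
Log2 ratio to asynchronous RNA (vertical axis) against minutes after release (horizontal axis) for each member, with open circles for the sample in Cy3, filled squares for the sample in Cy5 and a line for their mean (n = 2 technical arrays per time point). Yellow and grey bands mark the G1/S and mitotic windows of each cycle. RFA1, RFA2 and CTF18 have 2 broad maxima near 20 and 80 min. RFC1 is below 0 from 0 to 15 min (-0.52 at 0 min), near 0 from 20 to 100 min, and falls to -1.84 at 105 min.

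Of the 10 members, 8 were periodic, against 33.7% of all frames (limma moderated F test on a cosine of 66 min, the period fitted on 59 genes of 4 textbook lists that hold no member, with Benjamini-Hochberg adjustment over all frames and a threshold of 0.05). Amplitude is the fitted distance from mean to peak on the log2 scale. RFA2 had 1.0 ± 0.11 (SE over 25 time points) with a peak at 22.8 ± 1.17 min (limma adjusted p = 1.86e-06). RFA1 had 0.98 ± 0.11 with a peak at 20.7 ± 1.25 min (limma adjusted p = 4.63e-06). These are ranks 60 and 65 of 6204 by amplitude, and the fitted ratios of peak to trough were 3.98 and 3.87. RFA3 reached 0.45 ± 0.05 at 29.1 ± 1.24 min (limma adjusted p = 3.28e-06), a ratio of 1.85.

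RFA1 and RFA2 were the most alike pair of members, with r = 0.96 over the 25 time points, which share reference, arrays and the order of sampling. Their amplitudes differed by -0.02 (95% interval -0.12 to 0.08, RFA1 minus RFA2), and RFA1 peaked earlier, with a difference in peak time of -2.09 min (-3.19 to -0.98 min). RFA3 was the latest of the trimer: the peak of RFA1 minus that of RFA3 was -8.38 min (-10.8 to -5.94 min), and that of RFA2 minus RFA3 was -6.29 min (-8.17 to -4.42 min). These intervals come from the same fit and are not adjusted for the 45 pairs of members. RFA1 passed the midpoint of its first rise, between its lowest value before the maximum and that maximum, at 9.57 min. The Cy3 arrays gave 9.55 min and the Cy5 arrays 9.59 min. RFA2 passed it at 10.6 min and RFA3 at 12.8 min. In the second rise the midpoints came at 66.8, 67.7 and 69.8 min, in the same order. The interval between the midpoints of both rises was 57.0 to 57.2 min for the 3 genes, shorter than the fitted period of 66 min. For RFA3 the second midpoint rests on a maximum at 105 min (0.49), against 80 min for RFA1 and RFA2.

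The fitted amplitudes of the canonical clamp loader genes ran from 0.02 to 0.28, against a median of 0.14 over all frames. A cosine describes only part of their course, since RFC3 spanned 1.21 and RFC1 2.09 log2 units between lowest and highest time point. RFC5, a small subunit, had the largest amplitude of the 5: it was lowest at 0 min with -0.57, highest at 20 min with 0.55, and had an amplitude of 0.28 ± 0.06 with a peak at 22.5 ± 2.29 min (limma adjusted p = 0.00287). RFC3, also a small subunit, ran from -0.52 at 5 min to 0.69 at 20 min, stayed at or above -0.06 at every later time point, and had an amplitude of 0.23 ± 0.07 with a peak at 28.9 ± 3.19 min (limma adjusted p = 0.0317). RFC4 ran from -0.51 at 5 min to 0.35 at 20 min, and its amplitude of 0.18 ± 0.05 at 17.99 ± 3.17 min passed narrowly (limma adjusted p = 0.0374). RFC4 passed on neither dye alone (limma adjusted p = 0.0579 in Cy3 and 0.165 in Cy5). RFC3 and RFC4 were also not called on leaving out single time points, 5 of 25 for RFC3 and 9 of 25 for RFC4.

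RFC2, another shared small subunit, was the flattest member: its lowest value was -0.34, its median -0.15 and its highest 0.09, and its amplitude of 0.02 ± 0.04 ranked 6123 of 6204 (limma adjusted p = 0.921). Its dyes tracked each other with r = 0.25 over 25 time points, against 0.98 for RFA1. RFC1, the large subunit, was not called periodic either, with an amplitude of 0.13 ± 0.14 (limma adjusted p = 0.730). Every RPA gene had a larger amplitude than every RFC gene, and the 95% interval of the difference lay above 0 for 14 of the 15 pairs. The exception was RFA3 against RFC1, at 0.32 with an interval from -0.01 to 0.64. The smallest difference with an interval above 0 was RFA3 against RFC5, at 0.17 (0.04 to 0.29).

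Both large subunits of the alternative loaders were periodic, CTF18 with the larger swing. CTF18 stood at -0.70 (Cy3) and -0.51 (Cy5) at 0 min, at 1.33 and 1.06 at 20 min, at -0.69 and -0.76 at 60 min, and at 0.40 and 0.60 at 80 min. It held between 0.32 and 0.50 from 75 to 100 min before it dropped to -0.34 at 105 min. Its amplitude was 0.71 ± 0.09, rank 158 of 6204, with a peak at 24.2 ± 1.32 min and a fitted ratio of 2.67 between peak and trough (limma adjusted p = 7.14e-06). ELG1 rose from -0.52 at 5 min to 0.83 at 20 min, was back at -0.10 at 35 min, and reached 0.15 at 75 min. Its amplitude was 0.36 ± 0.07 with a peak at 19.8 ± 2.00 min (limma adjusted p = 9.42e-04). The fitted peak of ELG1 came 4.39 min before that of CTF18 (interval 1.75 to 7.02 min), and the amplitude of CTF18 was larger by 0.35 (0.24 to 0.47). Both genes were highest at 20 min, and ELG1 passed the midpoint of its first rise at 10.1 min, CTF18 at 9.73 min. Against RFC1, whose place they take, the amplitude of RFC1 minus that of CTF18 was -0.58 (-0.90 to -0.26), and that of RFC1 minus ELG1 was -0.23 with an interval that included 0 (-0.54 to 0.08).

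**Figure D2:**
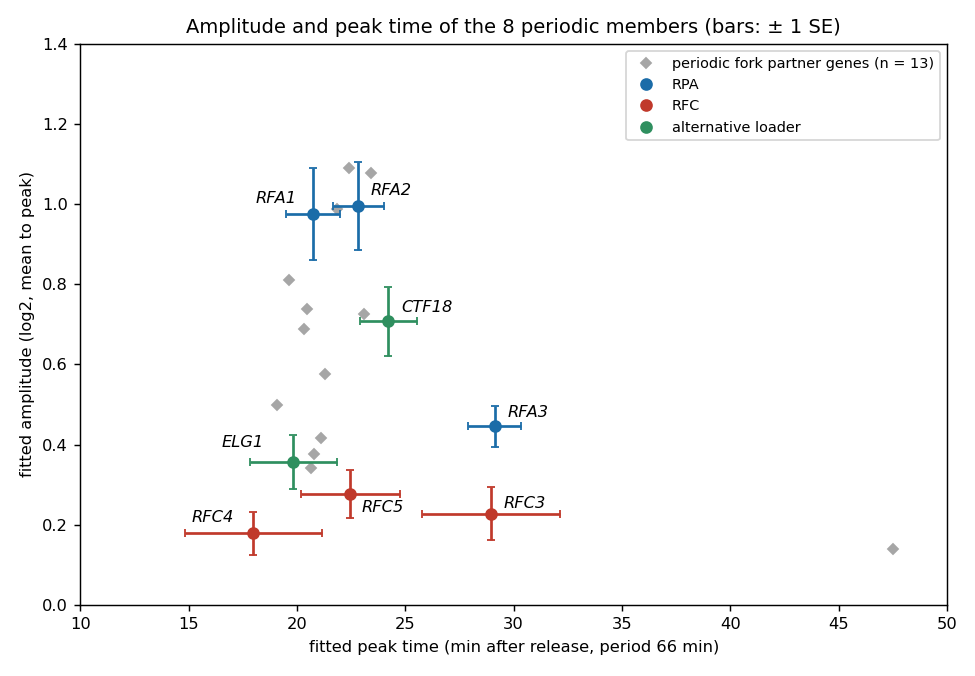
Fitted amplitude (log2, vertical axis) against fitted peak time (minutes after release, horizontal axis) for the 8 periodic members, with bars of ± 1 SE over 25 time points, and for 13 periodic genes of the replication fork (grey diamonds). Among the members RFA1, RFA2 and CTF18 lie highest, between 20.7 and 24.2 min, with POL1 (1.09) and POL30 (1.08) above them, while RFA3 and RFC3 lie later at about 29 min and DPB4 stands alone at 47.5 min.

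All 8 periodic members peaked between 17.99 and 29.1 min. Of the 28 pairs among them, 15 had a 95% interval of the peak difference that did not include 0. In RFC, RFC3 peaked 6.48 min after RFC5 (0.58 to 12.4 min) and 10.9 min after RFC4 (3.16 to 18.7 min), while RFC4 and RFC5 differed by -4.47 min with an interval of -9.17 to 0.23 min. With the dyes taken alone, 7 members were periodic in Cy3 (27.5% of frames) and 5 in Cy5 (23.9%). The 5 members called in each dye alone (16.5% of frames) were RFA1, RFA2, RFA3, RFC3 and CTF18. RFC5 and ELG1 fell short with the sample in Cy5 (limma adjusted p = 0.0807 and 0.0561).

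The cosine was also fitted inside each array date batch that holds enough time points, as the titles of the arrays give the dates. No batch spans a full fitted period, so a call inside a batch cannot show that a course repeats. On the Cy3 arrays of 0 to 55 min 7 members passed the cosine test (29.7% of frames). On those of 60 to 120 min 5 did (22.5%): RFA1, RFA2, RFA3, CTF18 and ELG1. On the Cy5 arrays of 5 to 60 min 9 did (41.6%), RFC2 being the exception, with RFC1 peaking at 41.9 min at an amplitude of 0.15. Amplitudes within these batches were 1.30, 0.74 and 1.24 for RFA1, 1.42, 0.73 and 1.33 for RFA2, and 1.02, 0.63 and 0.87 for CTF18. The members' residuals were correlated between neighbouring time points (0.118 to 0.600, against a median of 0.0695 over all frames). With errors correlated at the highest of these values, RFA1, RFA2, RFA3 and CTF18 were called, and RFC3, RFC4, RFC5 and ELG1 were not.

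Release from the arrest raised most members. From the arrest window (0 and 5 min) to the G1/S window of the first cycle (15, 20, 25 and 30 min), 8 members rose, against 9.03% of frames, and none fell (9.59% of frames; limma contrast of window means). RFA1 was at -1.06 and -1.11 in the arrest window and at 1.02, 1.22, 0.97 and 0.53 in the G1/S window, a rise of 2.02 ± 0.26 (limma adjusted p = 7.59e-05). RFA2 rose by 2.10 ± 0.29 and RFA3 by 1.01 ± 0.18. CTF18 rose by 1.74 ± 0.17, from -0.61 and -0.82 to 0.92, 1.19, 1.17 and 0.80 (limma adjusted p = 6.40e-06). The windows did not overlap in 9 members (15.6% of frames), RFC1 being the exception. ELG1 rose by 0.91 ± 0.15. Of the canonical loader, RFC3 rose by 0.998 ± 0.12, RFC5 by 0.88 ± 0.11 and RFC4 by 0.54 ± 0.12. RFC4 was not called with the Cy5 arrays alone or without 5 min. RFC1 differed by 0.34 ± 0.26 and RFC2 by 0.20 ± 0.09, neither past the threshold (limma adjusted p = 0.421 and 0.162). All 10 members were below 0 at 0 and at 5 min. The share of all frames below 0 there was not counted, and the medians of the arrays lay between -0.005 and 0.034 as deposited.

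In the first cycle the G1/S window was above the mitotic window (40, 45, 50 and 55 min) for 7 members (8.51% of frames). RFA1 was at -0.43, -0.49, -1.17 and -1.52 in the mitotic window, a difference of 1.84 ± 0.21 from G1/S (limma adjusted p = 1.49e-04). RFA2 differed by 1.77 ± 0.24, CTF18 by 1.16 ± 0.14, ELG1 by 0.84 ± 0.12, RFC5 by 0.50 ± 0.09, RFC4 by 0.42 ± 0.10 and RFC3 by 0.38 ± 0.09. RFC4 was not called with the Cy5 arrays alone (limma adjusted p = 0.127). In those same 7 genes every G1/S value lay above every mitotic value, as in 12.4% of frames. RFA3 differed by 0.45 ± 0.15 and just missed the threshold (limma adjusted p = 0.0531). Its mitotic values ran from 0.47 at 40 min down to -0.32 at 55 min and overlapped its G1/S values of 0.27 to 0.70. RFA3 passed with each array centred on its median and with values at the limit set to missing.

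In the second cycle 6 members were higher in G1/S (80 to 95 min) than in the mitotic window (105 to 120 min), against 11.7% of frames. RFA1 was at 0.78, 0.55, 0.34 and 0.21 and then at -0.55, -0.41, -0.66 and -0.48, a difference of 0.99 ± 0.21 (limma adjusted p = 0.00467). RFA2 differed by 0.86 ± 0.24, CTF18 by 0.85 ± 0.14, RFC5 by 0.43 ± 0.09 and ELG1 by 0.41 ± 0.12, and RFC1 by 1.12 ± 0.21. The windows did not overlap in these 6 genes (13.5% of frames). With the Cy5 arrays alone RFA2 (limma adjusted p = 0.0503) and ELG1 (0.228) were not called, and with the Cy3 arrays alone RFC5 fell to 0.25 (0.190). ELG1 was also not called without 105 min (limma adjusted p = 0.0509). RFA3 differed by 0.17, RFC4 by 0.16, RFC3 by -0.06 and RFC2 by -0.10, none past the threshold. The second maxima of RFC4 (0.27) and ELG1 (0.15) came at 75 min, before this window opens, and RFC3 was at 0.30 there. Those of RFA1, RFA2 and CTF18 came at 80 min, inside it. The G1/S windows open at 15 and 80 min, while the midpoints of both rises lay 55.1 min apart for RFC4 and 57.5 min for ELG1. The part of window placement in the second-cycle differences was not tested. With 105, 110 and 115 min left out, a setting chosen after seeing the data that leaves 120 min alone in the window, 0 members and 98 of 6204 frames passed.

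**Figure D3:**
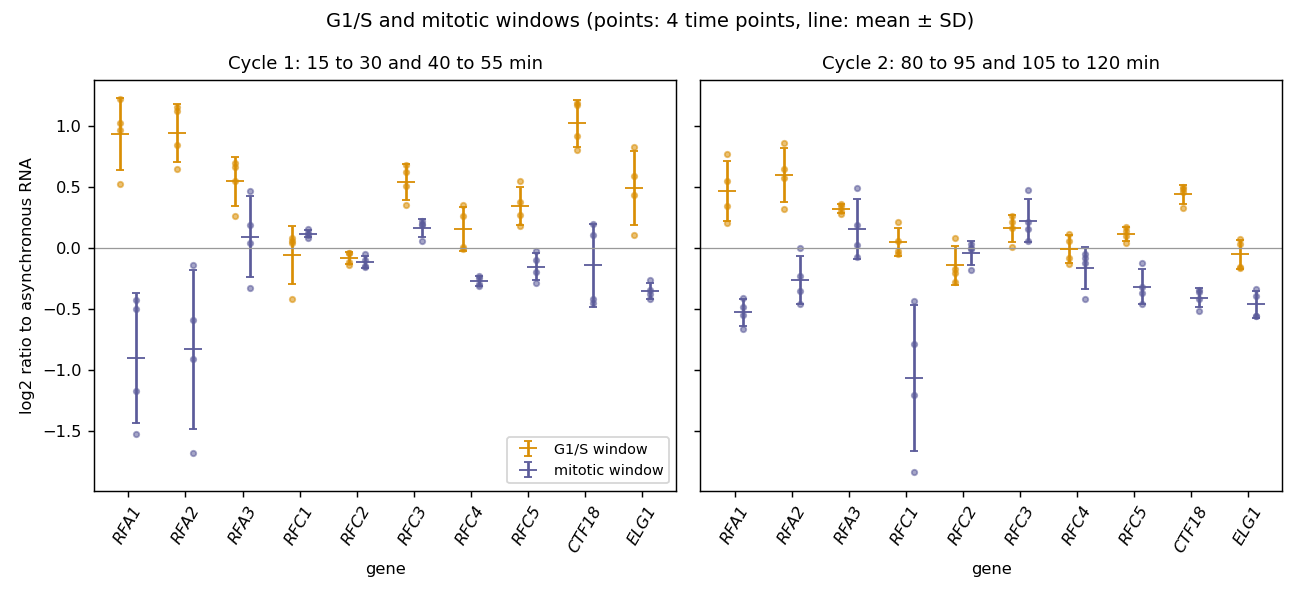
Log2 ratio to asynchronous RNA (vertical axis) of each member (horizontal axis) in the G1/S window (orange) and the mitotic window (violet) of the first cycle (left) and the second cycle (right). Points are the 4 time points of a window and lines their mean ± SD. RFA1 and RFA2 separate in both cycles, and the mitotic values of RFC1 lie below its G1/S values only in the second cycle, where they run from -1.84 to -0.43.

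Most members swung less in the second cycle. A separate cosine for each cycle (0 to 55 and 60 to 115 min) differed for 8 members, against 23.4% of frames, and in 7 of them the amplitude was smaller (13.2% of frames; limma F test of the interaction). The F test takes amplitude and peak time together, so its p does not belong to the fall in amplitude alone, which was not tested. The amplitude of RFA2 went from 1.37 to 0.75 (joint limma adjusted p = 0.00478) and that of RFA1 from 1.30 to 0.81 (joint limma adjusted p = 0.0159). RFA3 went from 0.61 to 0.35, CTF18 from 0.94 to 0.63, RFC5 from 0.43 to 0.27, RFC4 from 0.29 to 0.16 and RFC3 from 0.44 to 0.04. With the Cy5 arrays alone the calls of RFA3, RFC3, RFC4, RFC5 and CTF18 were lost, and with the Cy3 arrays alone those of RFA1, RFC4 and RFC5. The calls of RFC3 and RFC4 were each kept in 10 of 24 fits without 1 time point. RFC3 had a clear rise after release and a fitted amplitude near 0 in the second cycle. Its mean still rose from -0.06 at 65 min to 0.30 at 75 min, before the G1/S window opens. Its G1/S values in the second cycle, 0.01 to 0.26, lay within the range of its mitotic values, 0.06 to 0.47. The exception was the single-array value of 0.01 at 95 min. The highest mitotic value was at 105 min, where the arrays split (0.24 in Cy3 and 0.71 in Cy5). RFC3 and RFC1 were the members whose difference between G1/S and mitosis itself differed between cycles, by -0.44 ± 0.13 (limma adjusted p = 0.0497) and 1.29 ± 0.30 (limma adjusted p = 0.0218), against 9.78% of frames. The RFC3 call was marginal: it was kept in 2 of 18 fits without 1 time point and under 4 of 10 alternatives, and it was lost on each dye alone.

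ELG1 went from 0.53 to 0.30 and did not pass (limma adjusted p = 0.130), and RFC2 had 0.07 and 0.05. RFC1 went the other way, from 0.25 to 0.61. The observed rise, from the lowest value before a maximum to that maximum, went from 2.33 to 2.02 for RFA1 and from 2.34 to 2.03 for RFA2. These were smaller proportional falls than those of the fitted amplitudes. For ELG1 the rise went from 1.35 to 0.52, the largest fall among the members with both rises. RFC5 (1.12 to 0.32) and CTF18 (2.01 to 1.22) were close to it, and RFC2 did not fall (0.30 and 0.31). With 105, 110 and 115 min left out, 5 members differed, RFC1 had a smaller amplitude in the second cycle by -0.09 (limma adjusted p = 0.168), and RFC4 and CTF18 were no longer called. The size of the change moved by over 1.5 times between settings: it ran from -0.60 to -0.13 for RFA1, from -0.77 to -0.24 for RFA2, from -0.41 to -0.10 for RFA3, from -0.46 to -0.18 for RFC3, from -0.204 to -0.043 for RFC4, from -0.27 to -0.051 for RFC5 and from -0.39 to -0.22 for CTF18. The interaction also takes in the arrest values and any change in spacing of the cycles. In the Cy3 orientation the array date changes between 55 and 60 min, so cycle and date cannot be told apart there. The mean level over a cycle differed for 0 members by limma, also at an unadjusted p under 0.05, against 20.7% of frames. The lowest p was that of CTF18, with a difference of -0.22 ± 0.12 in the second cycle (limma, unadjusted p = 0.0742 and adjusted p = 0.193). Without 5 min, CTF18 and ELG1 were called lower.

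**Figure D4:**
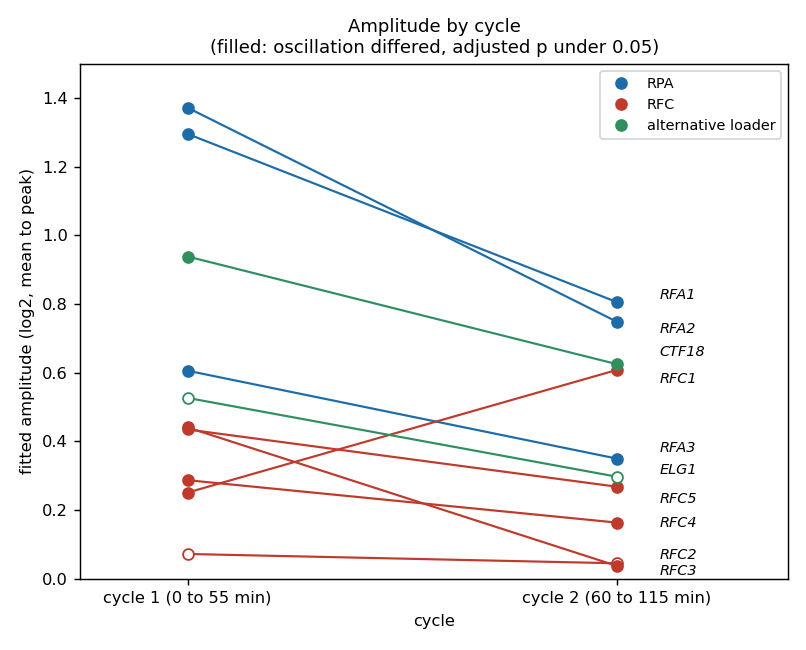
Fitted amplitude (log2, vertical axis) of each member in the first cycle (0 to 55 min) and in the second (60 to 115 min), joined by a line, with filled points where the oscillation differed at an adjusted p under 0.05. The amplitude falls for 9 members, as it does for 3345 of 6204 frames, and rises for RFC1, from 0.25 to 0.61.

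RFC1 departed from every other member late in the course. From 20 to 100 min it stayed between -0.04 and 0.25. At 105 min it was at -2.02 with the sample in Cy3 and -1.65 with the sample in Cy5. It stood at -1.05 and -0.53 at 110 min, at -1.48 and -0.93 at 115 min, and at -0.64 and -0.22 at 120 min. The drop was thus seen in both dye orientations, and the lowest mean of RFC1 at any earlier time point was -0.52, at 0 min. At 105 min 5.75% of frames were below -1, and 91 of 6204 were lower than RFC1. No other member was below -0.56 in the mean at 105 min, but the arrays split for RFC5 (0.15 in Cy3 and -1.06 in Cy5) and RFC4 (-0.09 and -0.75).

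The ratio moved with gene length at the same time points. Across 5704 frames with an annotated length, which are not independent replicates, Spearman's rho of ratio with length was -0.376 at 105 min, -0.261 at 110 min and -0.293 at 115 min, against -0.161 to 0.0917 at the other 22 time points. It was negative in both orientations at 105 min (-0.218 in Cy3 and -0.442 in Cy5). RFC1 is the longest member at 2586 bp, and RFA3 the shortest at 369 bp, with 0.49 at 105 min. ELG1 (2376 bp), CTF18 (2226 bp) and RFA1 (1866 bp) were at -0.56, -0.34 and -0.55. The 362 frames within 10% of the length of RFC1 had a median of -0.21 at 105 min, and those longer than 1902 bp, the upper quartile, had -0.19. Frames shorter than 762.75 bp, the lower quartile, had a median of 0.295 at 105 min. The highest second-cycle means of RFA3 (0.49) and RFC3 (1023 bp, 0.47) were at 105 min, inside the mitotic window. The part of length in the RFC1 drop, and in the second-cycle mitotic values of the other members, long or short, was not tested.

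**Figure D5:**
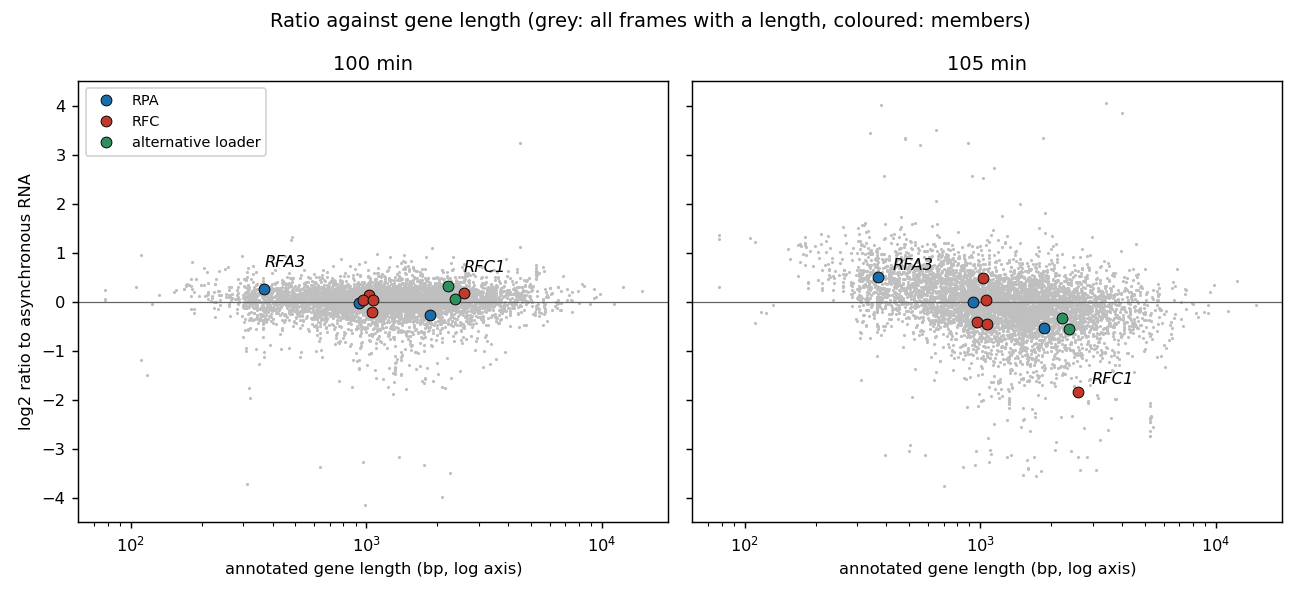
Log2 ratio to asynchronous RNA (vertical axis) against annotated gene length in bp (horizontal log axis) at 100 min (left) and 105 min (right), with 5704 frames in grey and the members in colour. At 105 min the cloud slopes downwards, RFA3 lies at 0.49 and RFC1 lies low in the cloud at -1.84, with 91 of 6204 frames lower.

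The dyes differed in level for 5 members, against 46.5% of frames (limma test of the paired differences). The ratio was higher with the sample in Cy5 by 0.26 ± 0.04 for RFC1, 0.22 ± 0.04 for RFA2, 0.19 ± 0.04 for RFC4 and 0.10 ± 0.04 for RFC2, and lower by -0.22 ± 0.06 for ELG1. For RFC1, RFC2 and RFC4 these offsets are larger than the fitted amplitudes of 0.13, 0.02 and 0.18. The RFC2 call was lost with each array centred on its median (0.062, limma adjusted p = 0.171), and 5 of 10 is near the share of all frames. An offset shared by all time points of an orientation cancels in the amplitude.

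The fork partner genes spanned the range of amplitudes from RFC to RPA. Of 16 fork partner genes 13 were periodic, with a median amplitude of 0.54 over the 16, against 0.32 over the 10 members and 0.14 over all frames. The largest were POL1, the catalytic subunit of polymerase alpha, with 1.09, POL30, which encodes PCNA, with 1.08, the flap endonuclease gene RAD27 with 0.99, and POL12, also of polymerase alpha, with 0.81. POL30, whose product RFC loads, thus had an amplitude of 1.08 beside the 0.02 to 0.28 of the RFC genes. The oscillation differed between cycles, with a smaller amplitude in the second, for 9 of the 16, against 13.2% of frames. PRI1, DNA2 and DPB3 were not periodic, and DPB4, a polymerase epsilon subunit, peaked at 47.5 min. Of 9 other clamp and loader genes 3 were periodic (33.3%), close to the 33.7% of all frames: RAD17 (0.21), MGS1 (0.17) and DCC1 (0.13), with a median amplitude of 0.08. DCC1 and CTF8 encode the partners of Ctf18 in its loader. DCC1 peaked at 44.6 ± 2.89 min, against 24.2 min for CTF18, and CTF8 was not periodic (0.08 ± 0.05). RAD24, the large subunit of the checkpoint loader, was not periodic at 0.04 ± 0.06, nor were DDC1 and MEC3 of the checkpoint clamp at 0.05 and 0.08. RAD17 of the same clamp was periodic, at 0.21 ± 0.05 (limma adjusted p = 0.00847).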

How the data were processed

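The deposited table holds log10 ratios per open reading frame and array, as read here: the authors' software, normalization and centring, the log base and the direction are not given in the sources used here, and the whole genome array's build is not stated. Of 6217 lines, 13 controls or incomplete names were left out, which left 6204 frames. Symbols and lengths were taken from the RefSeq R64 gene table (5704 matched), and no coordinates are given. Arrays with the sample in Cy3 were sign-turned, all values were converted to log2, and each dye pair was averaged. A frame needed 20 time points, which removed none.

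Tests were fitted on all frames with limma 3.58.1 in R 4.3.3, adjusted by Benjamini-Hochberg and called at 0.05. Periods from 40 to 90 min were tried. Peak errors are delta-method standard errors. The second-cycle fits used 24 time points and the window fits 18. The computations were tested on simulated data. Members, gene lists and windows were chosen with earlier results of these data known, and all 10 members are named. From 2 lists of other genes at most 4 are named by largest amplitude, and others by outcome only. Alternatives covered array centring, values at the limit, each dye alone, the array date, the period, the time trend, correlated errors, other cycle limits and windows, and each time point left out. Arrays give no counts, so their number limits the precision. No promoter or protein sequence was used here.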

Additional observations from a re-analysis of the deposited data

Results flagged for a closer look

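Several members changed differently in the second cycle than in the first, by limma's tests of the interaction with cycle. For the oscillation this was an F test of amplitude and peak time together, with no test of the amplitude alone. The amplitude, second cycle minus first on the log2 scale, differed by -0.62 for RFA2, -0.49 for RFA1 and -0.26 for RFA3. It differed by -0.40 for RFC3, -0.17 for RFC5 and -0.12 for RFC4, and by -0.31 for CTF18. RFC1 was the exception, with 0.36. The difference between the G1/S and mitotic windows changed by 1.29 for RFC1 and by -0.44 for RFC3. The RFC3 window difference was kept in 2 of 18 fits without 1 time point. Both RFC1 values rest on 105, 110 and 115 min, and no cause was tested.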

How the results depend on the processing

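RFA1, RFA2 and RFA3 were called periodic under all 17 alternatives and on leaving out each time point, with amplitudes of 0.68 to 1.04, 0.718 to 1.047 and 0.34 to 0.47, and CTF18 under all but the 80 min period. The count of 8 periodic members became 5 without replicate 1 (Cy3), 7 without replicate 2, 3 at a period of 80 min and 4 with errors at the highest lag-1 correlation. Over all frames the best period was 61 min. The 8 members with a different oscillation became 3 without replicate 1, 5 without replicate 2, 5 without 105, 110 and 115 min and 2 without 0 to 15 and 60 to 75 min. RFC1's amplitude change turned to -0.093 and its level difference to 0.24 (limma adjusted p = 0.0120) without 105, 110 and 115 min. Level calls went from 0 to 1 (RFC1) in that setting and to 3 (RFC5, CTF18, ELG1) without 0 to 15 and 60 to 75 min. The 6 members with a second-cycle difference became 0 without 105 to 115 min and 2 with G1/S windows of 2 time points. The 2 members whose difference changed between cycles became 1 with arrays centred on their median, 0 and 1 without replicate 1 and 2, 5 with the array date as a term, 1 without 105 min, 0 without 105, 110 and 115 min and 0 with the shorter windows. Leaving out single time points gave 6 to 8 periodic members, 5 to 8 for the oscillation, 0 to 2 for the level, 7 to 8 for both first-cycle contrasts, 4 to 6 for the second, 1 to 4 for their difference and 5 for the dye. RFC1's oscillation call was lost without 115 min. Over all frames, 2089 periodic calls became 990 at a period of 50 min and 289 with the highest lag-1 errors. The 1451 oscillation calls became 794 without replicate 1, 711 without 105 to 115 min and 356 without 0 to 15 and 60 to 75 min. Level calls went from 1286 to 763 without replicate 1 and to 89 with the array date, and release calls from 1155 to 758 without replicate 2. First-cycle calls went from 994 to 576 without replicate 1 and 573 with shorter windows, and second-cycle calls from 1724 to 1028, 353 and, without 105 to 115 min, 98. Calls of their difference went from 607 to 94 without replicate 1, 1139 with the array date, 66 without 105 to 115 min and 59 with shorter windows. The causes were not tested.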

Other observations

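Per the R64 gene table, 9 members share a divergent upstream region with a neighbour, and 5 of those neighbours were periodic, against 33.7% of all frames. SEN34, a tRNA splicing endonuclease gene divergent from RFA1, had an amplitude of 0.37 with a peak at 20.8 min, against 0.98 and 20.7 min for RFA1, and r = 0.91 between the pair over 25 time points. IST2, divergent from RFC5, peaked at 45.2 min, against 22.5 min for RFC5, with r = -0.10. MID1, a calcium channel gene divergent from RFC3, had an amplitude of 0.19 with a peak at 22.1 min.

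Among 5405 frames with complete values, the courses most like the RPA mean were CDC21 (r = 0.99 over 25 time points), POL2 and RAD27 (both 0.98). Those most like CTF18 were OGG1 (0.98), PIF1 (0.97) and CDC21 (0.97), and those most like ELG1 were CDC45 (0.96), KAP114 (0.95) and POL31 (0.95). The mean of RFC1 to RFC5 had lower values, with PXL1, YHR127W and MID1 at 0.90. The mean of all 10 members was most like RSR1, OGG1 and TOS4, each at 0.98. For RFC1, a search added after its values were seen gave LCB4 (0.97), NOP56 (0.96) and SMI1 (0.95), which stood at -1.96, -2.41 and -2.17 at 105 min.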
